A study of Mus musculus with 8 samples.

Results

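Interferon-stimulated genes are the genes that cells switch on when they meet interferon, and they carry much of the cell-intrinsic defence against viruses. A set of 37 such genes was followed here in mouse calf muscle, out of 23008 mouse genes in the table. The members were picked by name, as interferon-induced sensors, signalling factors, antiviral effectors and interferon-inducible GTPases, and were looked up by Ensembl identifier. Each of the 37 was found. Muscle came from wild-type C57BL/6J mice that had received, through the tail vein, a construct named GNDM packaged in AAV9, an adeno-associated virus widely used to deliver genes to muscle. Guide m31, directed at Lama1, was given with the construct in 4 samples and a control guide that targets no gene in the other 4. Gastrocnemius was taken 11 weeks after injection; the age at injection is given as 7 weeks in one label and as 7 to 12 weeks in another. All 8 libraries therefore come from vector-treated mice, and no level without vector enters the comparison. Whether each library stands for its own mouse is not stated, so the p-values speak only of the spread among these libraries, part of which may be technical.

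Type I interferons bind the receptor pair IFNAR1 and IFNAR2, whose kinases JAK1 and TYK2 activate transcription factors of the STAT family. A complex that holds STAT2 and IRF9 then binds the interferon-stimulated response element, a repeat of GAAA, in the promoters of its target genes. Interferon gamma acts through another receptor and the gamma-activated site, and it is a strong inducer of the guanylate-binding and immunity-related GTPases. Nucleic acids of viruses and viral vectors can start this loop when they meet sensors such as TLR9 for DNA, or RIG-I and MDA5 for double-stranded RNA.

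The promoters of several members show this wiring in their sequence. RefSeq promoters (GRCm38.p6, 250 bases before to 50 after a start site) were at hand for 28 of the 37 genes. The core of the response element was searched as GAAA, then 2 bases of any kind, then GAAA again, on both strands (TTTC, 2 bases, TTTC on the other), and was present for 18 of these 28 genes (64.3%), against 3.99% of all 27025 genes of that table. The core of the gamma-activated site, TTCNNNGAA, which reads the same on both strands, was present for 7 of 28 (25.0%), against 9.55% of all genes. Neighbouring matches of the first motif can share bases, and a match describes the letters only. The 4 stretches below belong to members whose values are given library by library; capitals mark the matches to the response element core, and each is read on the gene's strand, 5′ to 3′. For Ifit3, Bst2 and Ifit3b the stretch ends at the start site; for Ifih1, whose match lies after the start site, the 30 bases around it are shown.
Ifit3, chr19:34583353-34583528, plus strand: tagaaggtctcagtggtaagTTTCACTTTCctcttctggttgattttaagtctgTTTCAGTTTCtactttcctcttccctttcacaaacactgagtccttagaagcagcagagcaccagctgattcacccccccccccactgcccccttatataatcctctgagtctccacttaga
Ifit3b, chr19:34607749-34607956, plus strand: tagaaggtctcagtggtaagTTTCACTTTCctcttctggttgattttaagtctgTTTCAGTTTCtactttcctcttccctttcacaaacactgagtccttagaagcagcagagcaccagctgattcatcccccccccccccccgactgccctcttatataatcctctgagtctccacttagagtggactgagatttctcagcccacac
Bst2, chr8:71537473-71537622, minus strand: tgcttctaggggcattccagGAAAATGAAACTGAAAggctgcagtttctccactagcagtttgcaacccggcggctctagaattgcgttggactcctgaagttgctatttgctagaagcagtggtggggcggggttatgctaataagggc
Ifih1, chr2:62646206-62646235, minus strand: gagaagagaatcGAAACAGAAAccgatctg
Ifit3 and Ifit3b share an unbroken run of 127 bases in these stretches, both matches included. The genes are near-identical copies, so reads may have been split between them in counting, and their separate values are uncertain.

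Lama1, the target of m31, serves as a check on the samples. It stood at 86.5 to 295 normalised reads under m31 and at 0 to 4.18 in the control libraries. It was the 1 gene of 15960 past limma's threshold between guides (log2 difference 6.60). Genes were tested if their mean over the 8 libraries was at least 10, and every control value of Lama1 lay under that. Lama1 was thus tested only through its m31 values. Its difference had to be positive, and no p-value of it is given. A normalised read is a read count divided by the size factor of its library. Depth was 25157486 to 39210248 reads in genes, and mitochondrial genes took 11.9 to 15.03% of them. The 7 markers of skeletal muscle fibres summed to between 3864348 and 5285594 normalised reads per library. The 10 macrophage markers, all present, summed to 3688 to 4459 in m31 replicates 1 to 3 and 8803 in m31 replicate 4; with the control guide the sums were 2629 to 3055 in replicates 1, 2 and 4 and 6284 in replicate 3. The 4 stromal markers were also highest in m31 replicate 4 (21217) and control replicate 3 (19113). The 8 T and NK cell markers, of which 2 passed the filter, summed to 44.6 to 135 under m31, and control libraries had 37.3 to 80.9. Cd3g was at 0 in m31 replicates 1 and 3 and in control replicates 3 and 4. Ncr1 was at 0 in m31 replicates 1 and 3 and in control replicates 1 and 2. Nkg7 was at 0 in m31 replicates 2 and 3, and Cd8a in control replicate 4. The 4 markers of plasmacytoid dendritic cells, a main source of type I interferon in the body, summed to 19.1 to 44.1 and 20.99 to 38.2, with Klk1 at 0 in m31 replicate 3 and control replicate 1 and Ly6d at 0 in control replicates 1 and 4. In whole muscle, fewer cells of a type and less RNA per cell cannot be told apart.

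The members took between 0.0161 and 0.0251% of the reads in genes, and the libraries differed in their level more within a guide than between guides. In m31 replicate 4 all 37 genes stood above their own mean over the 8 libraries, and in m31 replicate 1 it was 33. In m31 replicate 3 only 4 did so (Ifih1, Trim25, Mx2 and Ifi27l2a), and m31 replicate 2 had 17. With the control guide, 25 stood above their mean in replicate 4, 18 in replicate 3, and 8 each in replicates 1 and 2. Over all 15960 genes tested this share was 50.6, 50.7, 51.6 and 49.3% in m31 replicates 1 to 4 and 50.8, 49.9, 50.2 and 50.5% in control replicates 1 to 4. The median of the members' centred log2 values was 0.29, -0.029, -0.39 and 0.28 for m31 and -0.16, -0.23, -0.0091 and 0.15 for the control guide, in the same order. The highest and the lowest library thus both carried m31, and the control libraries lay between them.

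**Figure D1:**
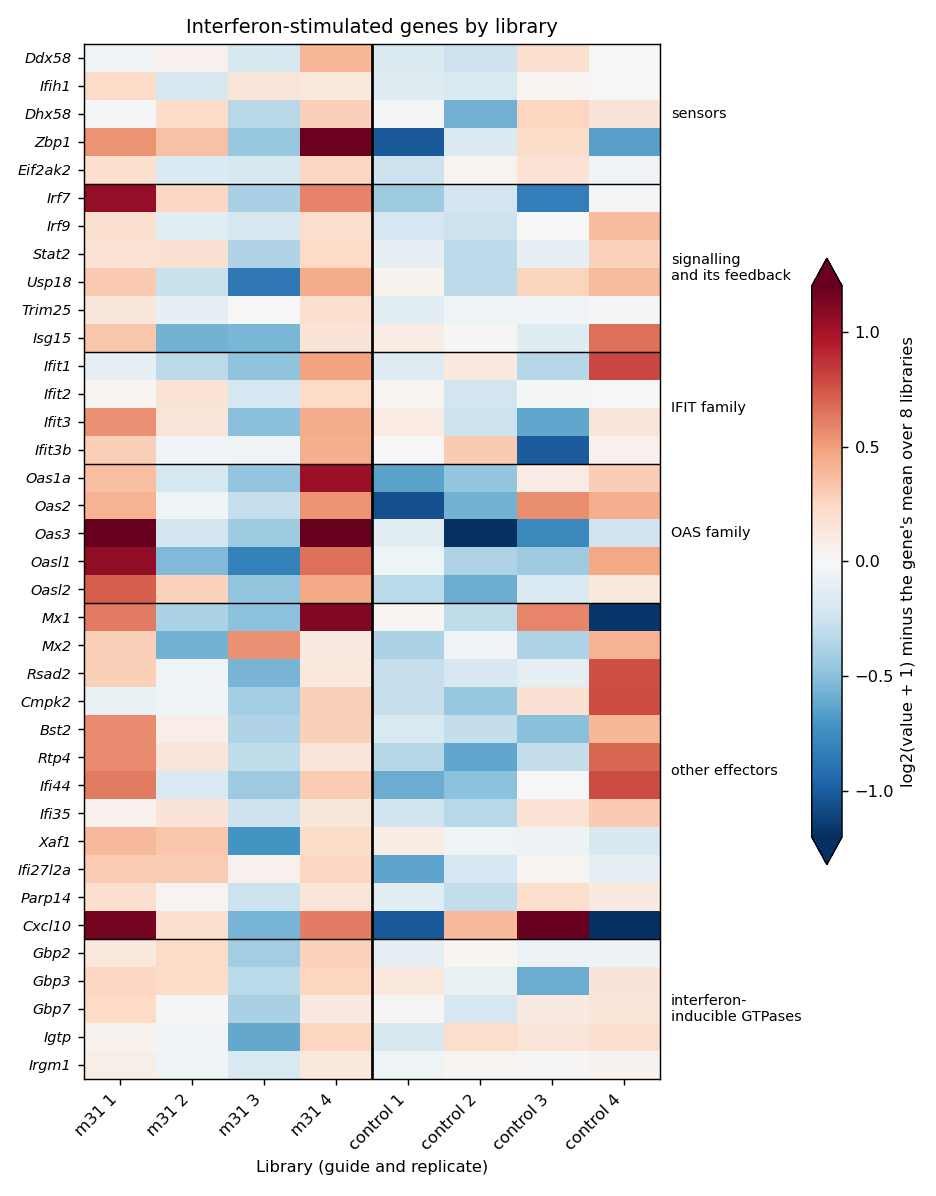
Heat map of the 37 genes (rows, grouped by role) in the 8 libraries (columns); colour gives log2(value + 1) minus the gene's mean over the libraries and saturates at the ends of the scale. Columns m31 1 and m31 4 are mostly red and m31 3 mostly blue, while control 4 is red for 25 genes.

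Different members peaked in different libraries. The highest value of a member was in m31 replicate 4 for 15 genes, among them Ddx58, Zbp1 and Oas1a, where 16.5% of all genes tested had their highest value. It was in m31 replicate 1 for 9 genes, Irf7, Oasl2 and Bst2 among them (9.47% of all genes). Another 9 peaked in control replicate 4 (16.7% of all genes), and these were Irf9, Stat2, Isg15, Ifit1, Rsad2, Cmpk2, Rtp4, Ifi44 and Ifi35. Control replicate 3 was the peak of 3 members (Oas2, Parp14 and Cxcl10), and the share of all genes that peaked there was not computed. By falling macrophage sum, 37 members stood above their means in m31 replicate 4 (8803) and 18 in control replicate 3 (6284). There were 17 in m31 replicate 2 (4459), 33 in m31 replicate 1 (3795) and 4 in m31 replicate 3 (3688). The last were 25 in control replicate 4 (3055), 8 in control replicate 1 (2875) and 8 in control replicate 2 (2629). Whether these marker levels have a part in the members' levels was not tested.

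Between guides, none of the members passed. Of the 36 genes with a mean of at least 10 normalised reads, 0 were past an adjusted p of 0.05 by limma, against 0.00627% of all genes tested, and the smallest adjusted p was 0.647 (Ifi27l2a). At an unadjusted p under 0.05 there were 2, Ifi27l2a and Irf7, both higher with m31, which is 5.56% of the members against 6.79% of all genes (3.76% with positive and 3.03% with negative differences). On the recovered reads edgeR's quasi-likelihood test and DESeq2 also placed 0 past the threshold. At an unadjusted p under 0.05 edgeR had 4 of 36 members, beside 1136 of all 16193 genes it tested. DESeq2, run without the filter and so with Oas3, had 5 of 37 members, beside 1237 of 23007 genes. The fitted difference, m31 minus control on the log2(value + 1) scale, was positive for 28 of the 36 and for 51.3% of all genes. Its median was 0.12 over the members and 0.0052 over all genes. Over the members it was 0.057 without m31 replicate 4 and 0.23 without m31 replicate 3. The gene-wise 95% interval of the difference lay within 1 log2 unit of 0 for 28 of the 36, so changes beyond a doubling or halving lie outside the interval for those genes. Oas3, the member left out by the filter, stood at 18.0, 5.39, 4.55 and 24.8 normalised reads with m31 and 5.86, 1.91, 3.37 and 5.33 with the control guide; it was high in m31 replicates 1 and 4 only.

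**Figure D2:**
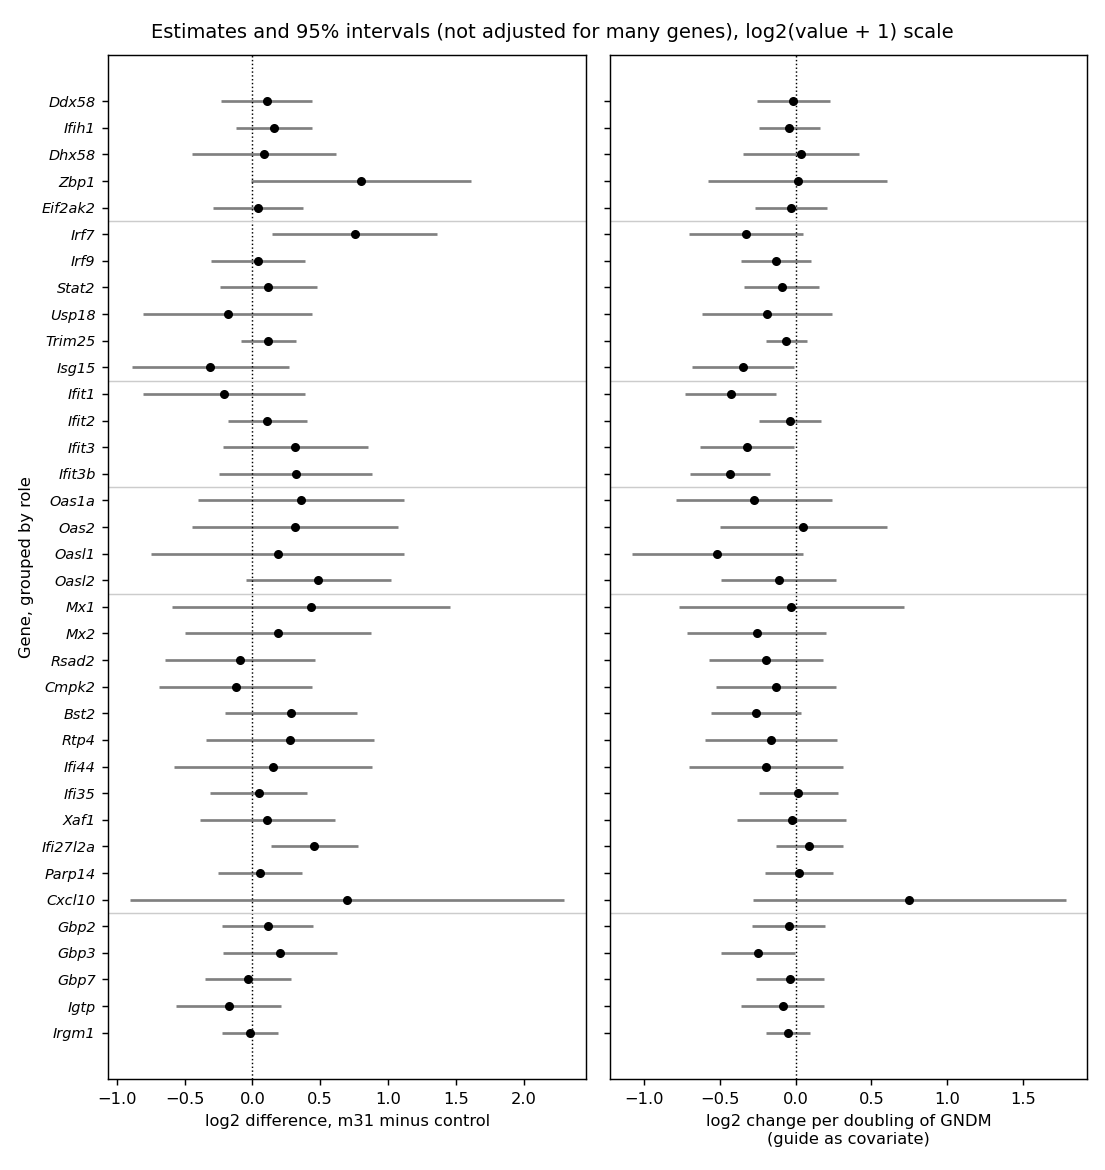
Fitted values of the 36 tested genes with gene-wise 95% intervals: left, the log2 difference between guides; right, the log2 change per doubling of GNDM with the guide as a covariate. Intervals exclude 0 for 2 genes on the left and 5 on the right, and 0 genes passed after adjustment over all 15960 genes in either fit.

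Among the sensors, Ddx58 encodes RIG-I and Ifih1 encodes MDA5, both helicases that bind double-stranded RNA. Dhx58 encodes their relative LGP2, Eif2ak2 the RNA-activated kinase PKR, and Zbp1 a receptor of Z-form nucleic acids that can trigger cell death. All 5 had positive differences, from 0.042 to 0.80. In normalised reads, with replicates 1 to 4 in order here and below, Zbp1 had 40.8, 35.9, 20.03 and 64.1 with m31 and 13.4, 24.8, 32.6 and 17.3 with the control guide. Replicates 1, 2 and 4 of m31 lay above every control library, and m31 replicate 3 lay within the control range. The difference was 0.80 ± 0.37 (SE), with limma's adjusted p = 0.733 and an exact two-sided permutation p = 0.114. Ddx58 had 180, 193, 162 and 244 with m31 and 166, 156, 212 and 187 with the control guide, so that m31 replicate 4 alone lay above all control libraries; the difference was 0.11, and -0.0077 without that library. For Ifih1 the values were 192, 143, 180 and 179 against 147, 143, 165 and 163; m31 replicate 2 was the lowest of the 8 and the other m31 libraries were the 3 highest. These helicases varied little, the highest library exceeding the lowest 1.56-fold for Ddx58 and 1.34-fold for Ifih1, against 4.79-fold for Zbp1.

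The signalling group holds the factors that carry the interferon signal and those that restrain it. Irf7, the transcription factor that amplifies type I interferon production, had 424, 243, 156 and 309 with m31 and 151, 174, 115 and 201 with the control guide. Its mean was 283 ± 113 (SD, n = 4) with m31 and 160.2 ± 36.6 with the control guide. The groups overlapped, because m31 replicate 3 lay below 2 of the control libraries. Its difference of 0.75 had a 95% interval from 0.14 to 1.36, limma's adjusted p = 0.698 and an exact permutation p = 0.0857. Isg15, a ubiquitin-like protein that is joined to other proteins, went the other way, with 64.6, 34.1, 34.6 and 56.9 against 54.4, 51.5, 46.1 and 81.3. For this gene m31 replicates 2 and 3 were the lowest 2 libraries and control replicate 4 the highest, and the difference was -0.31 ± 0.26 (SE). Leaving out 1 library moved it to between -0.48 (without m31 replicate 1) and -0.14 (without control replicate 4). Trim25, the ubiquitin ligase that acts on RIG-I, had the highest level of the group per kilobase of exon, 89.9 normalised reads, and varied 1.25-fold over the libraries, at 567, 483, 518 and 588 against 470, 499, 503 and 512. Stat2 and Irf9, which both belong to the complex that binds the response element, had differences of 0.12 and 0.041, and Usp18, which removes ISG15 and blocks the receptor, -0.18.

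**Figure D3:**
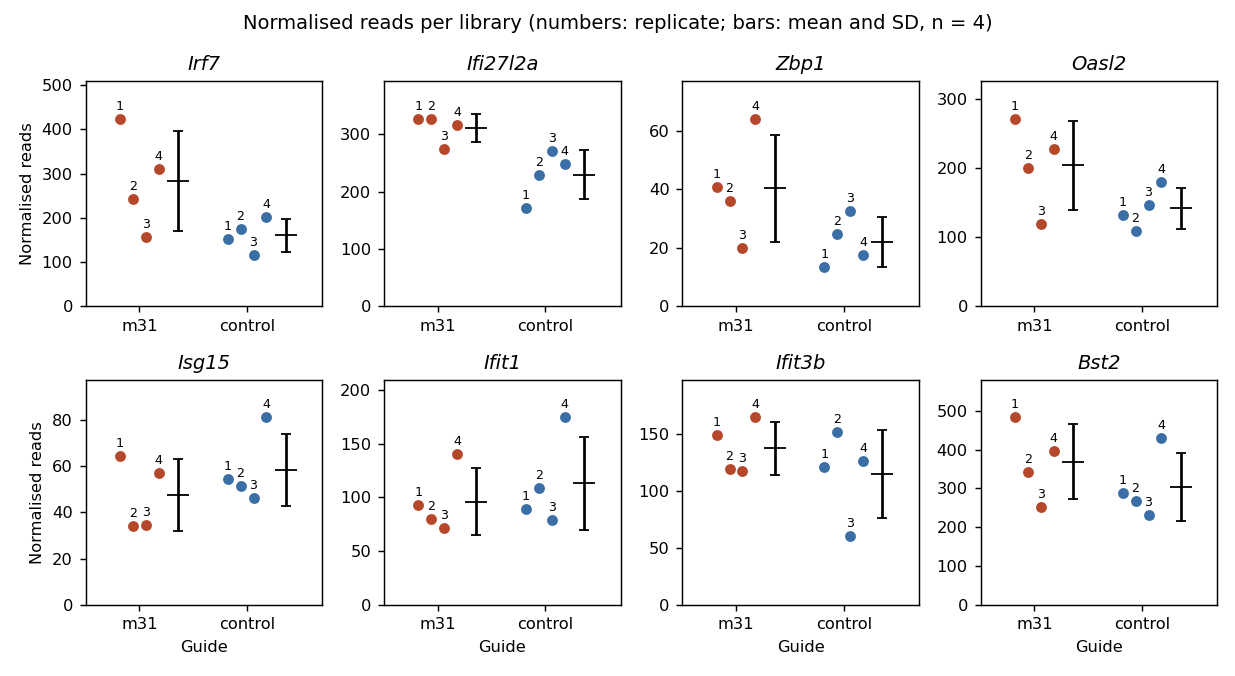
Normalised reads of 8 members in every library (points, numbered by replicate) with the mean and SD of each guide (n = 4). The guides do not overlap for Ifi27l2a; for the other 7 genes they overlap, and m31 replicate 3 lies below the m31 mean in each.

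IFIT proteins bind viral RNA ends and block their translation. Ifit1 stood at 93.1, 79.97, 71.0 and 140 normalised reads with m31 and at 89.6, 109, 78.7 and 175 with the control guide, highest in control replicate 4. Ifit3 had 268, 201, 128 and 248 against 196, 153, 118 and 201. Ifit3b, its near-copy, had 149, 120 (119.5 before rounding), 117 and 165 against 121, 152, 60.7 and 127. Ifit3 and Ifit3b were both lowest in control replicate 3, the library with the most GNDM, while Ifit1 was lowest in m31 replicate 3. The differences were -0.21 for Ifit1 (0.020 without control replicate 4), 0.32 for Ifit3 and 0.32 for Ifit3b. Without control replicate 3 they were 0.16 for Ifit3 and 0.040 for Ifit3b, and without m31 replicate 3 that of Ifit3 was 0.54. Ifit2 varied least of the family, 1.38-fold from lowest to highest, with a difference of 0.11.

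OAS enzymes make the short RNA-like messenger that activates RNase L, and Oasl1 and Oasl2 encode OAS-like members of the family. Oasl2 had 272, 199, 118 and 228 normalised reads with m31 and 131, 109, 146 and 180 with the control guide. Here m31 replicates 1, 2 and 4 lay above every control library and m31 replicate 3 below 3 of them, and the difference was 0.49 ± 0.24 (SE; limma adjusted p = 0.764). Oasl1 had 42.7, 13.5, 10.9 and 32.1 against 19.3, 15.3, 14.6 and 27.98, with m31 replicates 1 and 4 the highest 2 libraries and m31 replicates 2 and 3 the lowest. Oas1a, which has several relatives in the family, stood at 44.6, 29.7, 24.6 and 72.1 against 21.8, 24.8, 37.1 and 42.6. The 4 tested OAS genes had positive differences, from 0.19 to 0.49, with a median of 0.33. The difference of Oasl1, 0.19, turned to -0.14 without m31 replicate 1 and to -0.0022 without m31 replicate 4.

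The other effectors differ widely in level. Per kilobase of exon, Ifi27l2a, a small mitochondrial protein, averaged 584 normalised reads and Bst2, or tetherin, which holds budding virions on the cell surface, 372. The lowest were Mx1 at 3.93 and Mx2 at 5.09, dynamin-like GTPases of which Mx1 is known to be disrupted in C57BL/6 mice. Ifi27l2a was the 1 member of 37 whose groups did not overlap, with m31 above the control guide, a pattern shown by 1.84% of all genes tested, while 2.02% had every m31 library below the control guide. Its values were 328, 327, 275 and 316 with m31 and 171, 229, 271 and 248 with the control guide. The lowest m31 library, 275, stood just above the highest control library, 271. The mean was 311 ± 24.9 (SD, n = 4) against 229.6 ± 42.8, the difference 0.45 with a 95% interval from 0.13 to 0.78. An exact permutation test gives p = 0.0286, the smallest that 70 arrangements allow, to every gene whose groups do not overlap. That p-value therefore adds nothing to the pattern for which the gene was picked. The adjusted p by limma was 0.647.

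Bst2 had 483, 343, 253 and 397 normalised reads against 287, 267, 230.4 and 429, highest in m31 replicate 1 and lowest in control replicate 3. Its difference of 0.28 was 0.14 without m31 replicate 1 and 0.46 without control replicate 4. Parp14, an ADP-ribosyltransferase, varied 1.42-fold, at 390.3, 350.4, 286 and 378 against 311, 279, 396 and 370.4, and its difference of 0.054 was -0.034 without control replicate 2. Cxcl10, the chemokine that draws in activated T cells, was the most variable tested member, at 40.8, 20.7, 11.8 and 28.0 against 8.37, 23.8, 56.2 and 2.67. Its control libraries held both its highest value, in replicate 3, and its lowest, 2 reads in replicate 4. The interval of its difference, from -0.90 to 2.30, was the widest of all members. Rsad2 (viperin) and its genomic neighbour Cmpk2, which together make an antiviral nucleotide, had differences of -0.094 and -0.12, and both were highest in control replicate 4, at 228 and 217. Ifi44, Rtp4, Ifi35 and Xaf1 had differences of 0.15, 0.28, 0.047 and 0.11.

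The interferon-inducible GTPases, which take part in the defence against intracellular pathogens, did not separate by guide. Irgm1 had the smallest range of all 37 members, at 462, 424, 387 and 479 against 423, 449, 444 and 453, or 1.24-fold from lowest to highest. Its difference was -0.018 with a 95% interval from -0.23 to 0.19, and it was 0.040 without m31 replicate 3. Igtp had 332, 316, 211 and 387 against 283, 374, 357 and 370.4, and Gbp3 263, 258, 177 and 266 against 242, 209, 146 and 247. In both genes m31 replicate 3 was the lowest m31 library, and for Gbp3 control replicate 3 was the lowest of all. Of the 5 GTPases 2 had positive and 3 negative differences, from -0.18 (Igtp) to 0.20 (Gbp3). That of Igtp was -0.0004 without m31 replicate 3, and that of Gbp3 was 0.037 without control replicate 3.

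The construct offers a second axis, since its own level differed between libraries with the same guide. GNDM had 12365, 24487, 15418 and 6157 normalised reads with m31 and 11969, 13775, 37989 and 9802 with the control guide, a 6.17-fold range. Slopes on log2 GNDM were fitted with the guide as a covariate and are log2 changes per doubling of GNDM. None of the 36 members passed by limma, against 0.0125% of all genes, and the smallest adjusted p was 0.537 (Ifit3b). At an unadjusted p under 0.05 there were 5 (13.9%; 6.25% of all genes, 3.45% with positive and 2.79% with negative slopes), each with a negative slope: Ifit3b (-0.44 ± 0.12, SE), Ifit1 (-0.43 ± 0.14), Isg15 (-0.35 ± 0.15), Ifit3 (-0.32 ± 0.14) and Gbp3 (-0.25 ± 0.11). Both edgeR and DESeq2 placed 0 members past the threshold. At an unadjusted p under 0.05 edgeR had 4 of 36 members, beside 980 of all 16193 genes it tested. DESeq2 had 3 of 37 members, beside 900 of 23007 genes. By limma, slopes were negative for 29 of the 36 and positive for 7, with a median of -0.090. Over all genes 47.9% were positive and the median was -0.0059.

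These slopes lean on few libraries. The library with the least GNDM, m31 replicate 4, was the one in which all 37 members stood above their means and in which the macrophage markers were highest; without it, 16 of the 36 slopes were positive and the median was -0.020. The library with the most GNDM was control replicate 3, and without it 0 slopes were positive and the median was -0.22. Leaving out control replicate 1 left 4 positive slopes. Without control replicate 3 the slope of Ifit3b was -0.22 and that of Gbp3 -0.11. In the other roles the slopes with the smallest p were those of Oasl1 (-0.52 ± 0.25, SE), Bst2 (-0.26 ± 0.13) and, for the sensors, Ifih1 (-0.041 ± 0.089), with limma adjusted p = 0.818, 0.820 and 0.973. The slope of Ifih1 was 0.047 without m31 replicate 2. Cxcl10 had the largest positive slope, 0.75 ± 0.46. The direction also hung on the model. With the replicate number as a block, 31 of the 36 slopes were positive and their median was 0.23, beside 49.2% positive over all genes.

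**Figure D4:**
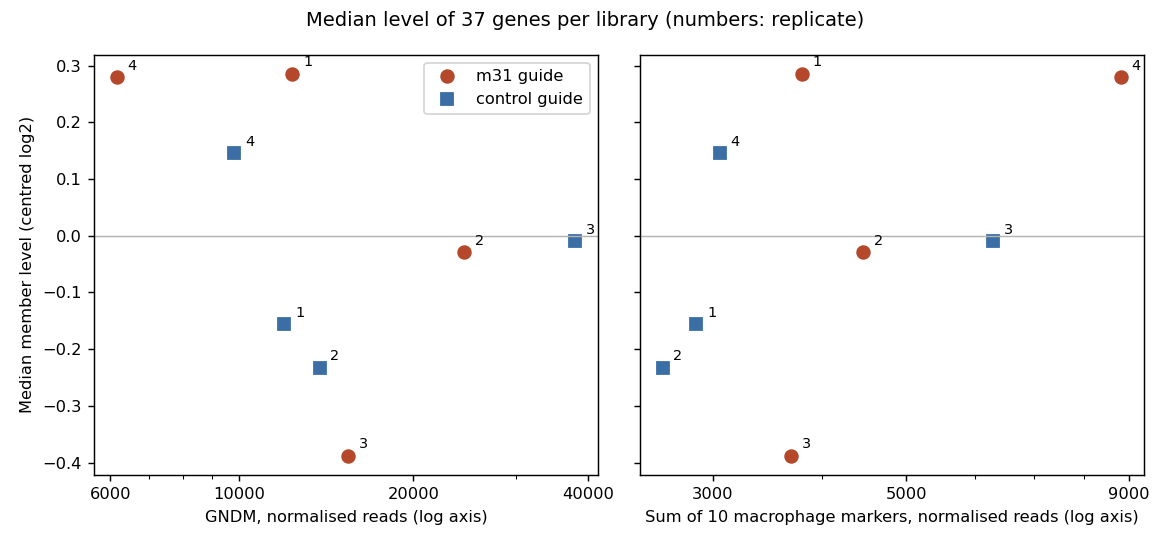
Median centred log2 level of the 37 genes in each library (points, numbered by replicate) against GNDM (left) and against the summed macrophage markers (right), both on log axes. The 3 libraries with a median above 0, m31 1, m31 4 and control 4, include the 2 with the least GNDM; m31 4 has the highest macrophage sum, and m31 1 and control 4 have sums of 3795 and 3055.

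The rest of the pathway was followed through lists of other genes, and 0 of their 74 tested members passed in either fit. The 10 interferon ligand genes listed were looked up, but 0 of them were among the 23008 genes, so none could be tested. Among the receptors, 5 of 6 were tested; Ifngr2, a chain of the interferon gamma receptor, had 1617 ± 40.3 (SD, n = 4) with m31 and 1861 ± 242 with the control guide (difference -0.19), and Ifnar2 a difference of 0.31 (0.18 without control replicate 2). Of 10 kinases and transcription factors, 9 had positive differences. Irf8, a factor of myeloid cells, stood at 201.3, 201.3, 197 and 298 with m31 and 149.8, 200.3, 145 and 120 (119.9 before rounding) with the control guide, and only m31 replicate 3 lay below a control library; its difference was 0.54 ± 0.18 (SE; limma adjusted p = 0.669). Irf5, also high in myeloid cells, had a difference of 0.32 (adjusted p = 0.720). The macrophage markers beside them had 10 of 10 positive differences with a median of 0.52, none past the threshold, and their part in Irf8 and Irf5 was not tested.

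Upstream sensing had 10 of 12 positive differences with a median of 0.22. Tlr9, the endosomal sensor of unmethylated DNA, stood at 22.8, 17.97, 12.7 and 57.7 normalised reads with m31 and at 9.21, 6.68, 25.8 and 6.66 with the control guide. Its values were highest in m31 replicate 4 and control replicate 3, the same libraries in which the macrophage markers were highest, and the difference was 1.12 ± 0.51 (SE; limma adjusted p = 0.733), and 0.71 without m31 replicate 4. Ticam1, the adaptor of TLR3, had a difference of 0.38, and Traf3, which links the adaptors to kinases, a slope on GNDM of 0.15 (0.090 without control replicate 3). The feedback genes Socs1 and Socs3 varied most of all these: Socs1 stood at 38.0, 200.4, 22.8 and 50.5 against 29.3, 24.8, 338 and 488, and Socs3 had a difference of -0.86 ± 0.67 (SE). In both genes control replicates 3 and 4 were the highest 2 libraries, and the difference of Socs3 was -0.39 without control replicate 4 and -1.49 without control replicate 2. Ptpn6, a phosphatase of blood cells, had a difference of 0.59, and 0.24 without m31 replicate 4. The list of further interferon-induced genes, outside the 37, had 42 tested members, 26 with positive and 16 with negative differences and a median of 0.095. Its smallest p-values between guides were those of Helz2 at -0.39 and Apol9b at 0.93, with limma adjusted p = 0.698 and 0.705. Oas1g, a relative of Oas1a, had 23.7, 10.8, 10.9 and 32.1 normalised reads with m31. With the control guide it had 7.53, 8.59, 10.1 and 7.995. Its control mean of 8.56 lay under the filter of 10, so that it was tested only through its m31 values. Its difference had to be positive, and no test of it is given. Oas1g is still counted among the 26 positive differences of the list and in the median of 0.095. It was highest in m31 replicates 1 and 4, as Oas3 and Oasl1 were.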

How the data were processed

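RNA of mouse gastrocnemius (4 libraries per guide, group and replicate from the sample titles) was sequenced from NEBNext Ultra libraries, per the labels' protocols. The deposited values are a signal: read counts divided by a size factor for each library. STAR, DESeq2 and the build GRCh38.p12 are named in the submitters' processing notes, although the identifiers are mouse. The sources give no version. Counter, strand setting and annotation were not given in the sources used here, so overlapping genes and near-copies are uncertain. Of 11 value columns, 8 match labelled libraries and 3 were not used; 5 construct entries stayed out of the gene tests. Whole reads were recovered (100% of values within 0.01 of a read); 29 genes had no symbol.

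Log2(value + 1) was fitted with limma 3.58.1 (R 4.3.3, intensity trend) for the 15960 genes with a mean of at least 10, by guide and, with the guide as a covariate, by log2 GNDM. Benjamini-Hochberg adjustment ran over every gene tested in a fit (threshold 0.05). Alternatives were edgeR 4.0.16 (1 gene called between guides; 7 for GNDM) and DESeq2 1.42.0 (31 and 71) on recovered reads, each library left out, a replicate block, other filters, pseudocounts and normalisations. The fits were tested on simulated data. Lengths are the union of GENCODE M21 exons. Members and lists were chosen with earlier results of these data known. Library-by-library values are given, per role, for the most abundant member and those with the smallest unadjusted p, and for members whose groups do not overlap; from the other lists, up to 3 genes with the smallest unadjusted p in either fit; promoters in order of the p between guides.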

Additional observations from a re-analysis of the deposited data

Results flagged for a closer look

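Of 86 groups of 4 libraries checked, over the members' values and 6 library measures, 8 held a library far from the other 3 by Dixon's criterion, where chance flags about 1 in 20. Among the members, Stat2 was low in m31 replicate 3 at 279 normalised reads. Gbp3 was low in the same library at 177. Rsad2 was high in control replicate 4 at 228. GNDM was high in control replicate 3 at 37989 normalised reads. The summed macrophage markers were high in m31 replicate 4, at 8803, and in control replicate 3, at 6284. In m31 replicate 4 the summed T and NK cell markers were high at 135 and the summed endothelial markers low at 9849.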

How the results depend on the processing

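No member passed the threshold in either fit under any of the alternatives run. Between guides, the median difference of the members stayed positive, from 0.057 without m31 replicate 4 to 0.23 without m31 replicate 3, and 23 to 32 of 36 estimates were positive with 1 library left out. For the construct level, leaving out 1 library gave 0 to 16 positive slopes and a median from -0.22 to -0.020. Requiring a mean of at least 50 left 4 positive slopes among 28 members. With the replicate number as a block, 31 of 36 slopes were positive and their median was 0.23, and the slopes of Bst2 (0.21), Gbp3 (0.017), Ifit3 (0.13), Isg15 (0.022) and Oasl1 (0.20) were positive. Deviations of same-numbered libraries correlated at 0.05, -0.05, -0.13 and -0.18, and no m31 library correlated best with the control library of its own number. No pairing by number shows in these values. They cannot tell whether same-numbered libraries shared a batch. Between guides the block left the 0 calls as they were and the median at 0.12. Some differences of single genes changed sign with 1 library, or the pair named below, left out. They ranged from -0.0077 to 0.19 for Ddx58, from -0.14 to 0.49 for Oasl1 (-0.0022 without m31 replicate 4), from -0.062 to 0.040 for Irgm1, from -0.034 to 0.15 for Parp14, from -0.56 to 0.020 for Ifit1, from -0.016 to 0.34 for Gbp3 and from -0.051 to 0.48 for Ifit3b. The slope of Ifih1 ranged from -0.43 to 0.047. Without both m31 replicate 4 and control replicate 3, a choice made after the values were seen, those of Gbp3 and Ifit3b had these lowest values, that of Oasl1 was -0.11, and the slope of Traf3 was -0.17. Recentring on library medians lowered the share of all genes with positive differences from 51.3 to 43.0%, with 28 members still positive. Between guides, genes called over the whole table numbered 1 by limma and by edgeR and 31 by DESeq2. For GNDM they numbered 2 by limma, 7 by edgeR and 71 by DESeq2, 22 without m31 replicate 4 and 0 with the block. The causes were not tested. Depth was lowest for Oas3 and Cxcl10, which had 2 reads in their lowest library.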
